A study of Mus musculus with 6 samples.

Results

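The genes Gpt2, Bhmt, Amy1, Rhbg, Sult1e1, Adhfe1 and Hpgds, 7 genes of intermediary metabolism, were examined in mouse Leydig cells. They were selected by their symbols as metabolic enzymes and an ammonium transporter of adult Leydig cells, a choice that rests on the authors' own fold change between adult and fetal cells. All 7 symbols matched exactly 1 row each of the 10580 genes listed in the deposited table. Fetal Leydig cells (FLCs) were sorted at embryonic day 18.5 and adult Leydig cells (ALCs) at postnatal day 100, with 3 libraries per stage and 6 in all. All animals of both stages were male and carried the transgene Tg(Nr5a1-GFP), given in the labels as Nr5a1 Tg, in which Nr5a1 sequences drive GFP. For the embryos the study mated heterozygous transgenic males with CD-1 females. The adults were heterozygous transgenic males, for which the study names no strain. Live single cells with strong GFP were collected. For fetal cells the study pooled several purifications to obtain enough RNA. Adult cells also came from several independent purifications. Nr5a1 is also active in Sertoli cells, so the sort rests on the brightness of GFP and not on GFP alone.

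For each gene the table holds 1 level, the authors' mean over all 6 libraries of read counts scaled for library size. The mean is not divided by gene length. It holds no value for a single library, so no spread, no depth and no difference between FLCs and ALCs could be computed here. The authors' fold changes and their tests, which chose these genes, were not used. Beyond what the paper reports, no statement that a gene was higher in ALCs is made below. Because each stage contributed 3 of the 6 libraries, the average of either stage lies between 0 and 2 times the mean, and this bound is given where it is informative. Fewer cells of a type and less RNA per cell cannot be told apart in such bulk samples.

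Leydig cells lie between the seminiferous tubules and convert cholesterol to androgens through CYP11A1, HSD3B and CYP17A1, under luteinizing hormone and the nuclear receptor NR5A1 (SF1). The 7 genes belong to other pathways, several of which are best known from the liver. BHMT passes a methyl group from betaine to homocysteine and so returns homocysteine to methionine. GPT2 is the mitochondrial alanine aminotransferase, which exchanges the amino group between alanine and glutamate. RHBG moves ammonia or ammonium across the plasma membrane. AMY1 is the amylase of the salivary gland and liver, SULT1E1 adds sulfate to estrogens, ADHFE1 oxidizes 4-hydroxybutyrate while reducing 2-oxoglutarate, and HPGDS is the glutathione-dependent prostaglandin D synthase of blood-derived cells.

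Promoter sequences are shown first for the starts with a match to the NR5A1 motif (Bhmt and Sult1e1) or to the TATA box (Amy1), with Gpt2, the gene of highest level, as a start that held neither. RefSeq (GRCm38.p6) gave 6 promoters for 5 of the genes, with 1 each for Gpt2, Bhmt, Sult1e1 and Hpgds and 2 for Amy1; Rhbg and Adhfe1 had no entry. Positions are counted from the RefSeq transcription start, the last base before it being -1. Capitals mark AAGGTCA, the core of the NR5A1 motif, the nuclear receptor core AGGTCA inside or outside it, and the TATA box TATAAA, on either strand; other motifs searched are in lower case. For Bhmt the GENCODE transcript starts 203 bases before the RefSeq start, so only the outer 47 bases and 15 bases around each NR5A1 match are shown.
Gpt2, chr8:85492326-85492575, plus strand: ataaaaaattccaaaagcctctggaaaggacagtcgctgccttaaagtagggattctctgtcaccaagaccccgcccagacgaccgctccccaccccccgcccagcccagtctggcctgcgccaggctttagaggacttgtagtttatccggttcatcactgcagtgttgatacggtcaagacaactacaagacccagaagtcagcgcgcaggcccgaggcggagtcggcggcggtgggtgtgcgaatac
Bhmt, outer bases, chr13:93637962-93638008, minus strand: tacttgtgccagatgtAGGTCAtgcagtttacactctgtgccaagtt
Bhmt, match at -73, chr13:93637821-93637835, minus strand: gatcAAGGTCAgagg
Bhmt, match at -48, chr13:93637796-93637810, minus strand: gacaAAGGTCAgtgt
Sult1e1, chr5:87591612-87591861, minus strand: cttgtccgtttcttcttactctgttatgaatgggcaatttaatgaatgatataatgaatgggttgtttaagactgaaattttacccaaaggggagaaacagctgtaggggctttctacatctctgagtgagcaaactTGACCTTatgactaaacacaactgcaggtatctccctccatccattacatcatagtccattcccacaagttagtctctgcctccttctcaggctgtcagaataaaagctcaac
Amy1, second start, chr3:113574763-113575012, minus strand: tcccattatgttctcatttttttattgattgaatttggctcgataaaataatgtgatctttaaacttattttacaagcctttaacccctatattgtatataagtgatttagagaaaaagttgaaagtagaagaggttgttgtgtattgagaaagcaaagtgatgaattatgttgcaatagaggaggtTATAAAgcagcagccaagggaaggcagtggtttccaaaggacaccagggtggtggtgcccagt

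Over windows from 250 bases before to 50 bases after the start, AAGGTCA was present in Bhmt and Sult1e1 and in 4.72% of all 32851 RefSeq mouse promoters. Bhmt held it at -73 and -48 on the gene's own strand, and the copy at -73 was preceded by C, which gives CAAGGTCA, a form present in 1.56% of promoters. Both copies lie downstream of the GENCODE start of Bhmt, inside the annotated gene. The match of Sult1e1 begins at -113 and is on the opposite strand, so that it appears as TGACCTT in the sequence shown. The core AGGTCA, which every AAGGTCA contains, stood alone at -234 in Bhmt and at 8, counting the start as 1, from the second start of Amy1, and was present in 16.3% of promoters. The second start of Amy1 also held the TATA box at -63 (13.6% of promoters), Bhmt held CCAAT at -56 on the opposite strand and at 34 (37.4%), and Hpgds held the C/EBP motif TTGCNNAA at -176 on the opposite strand (10.8%). The cyclic AMP response element TGACGTCA and its core TGACG, present in 1.79% and 20.8% of promoters, had no match in the 6 windows. These are letter matches and not measured sites.

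**Figure D1:**
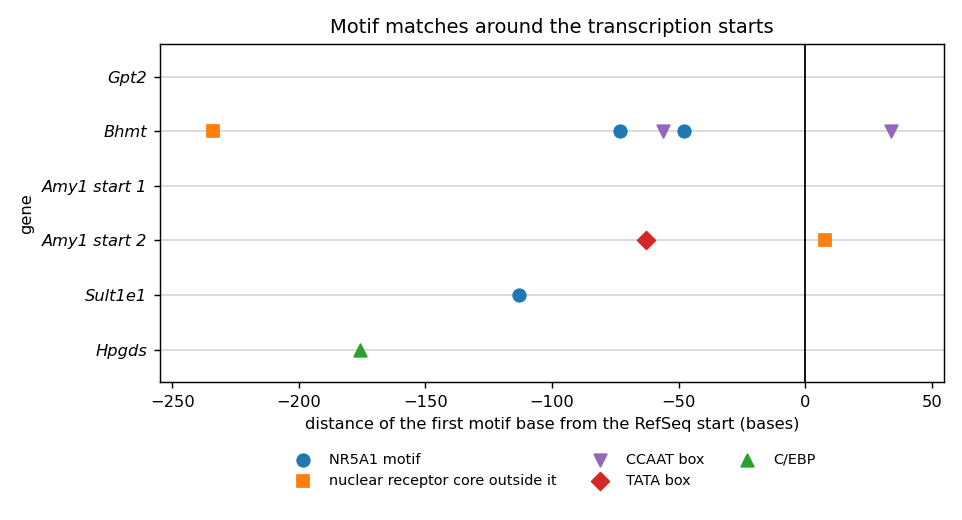
Motif matches around the 6 RefSeq starts of 5 genes, by the distance in bases of the first motif base from the start (vertical line); each symbol is 1 match on either strand. Matches to the NR5A1 motif lie before the starts of Bhmt and Sult1e1, and the rows of Gpt2 and the first start of Amy1 are empty.

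Base composition also differed between these starts. The window of Gpt2 was 60.3% GC and held 19 CpG dinucleotides, more than 71.9% of promoters. That of Sult1e1 was 40.0% GC and held 1 CpG, and the second window of Amy1 also held 1 CpG, against a median over all promoters of 52.7% GC and 7 CpG. The mouse Amy1 gene is known to use separate starts in different tissues. The deposited mean gives 1 value for the gene and cannot be divided between its starts.

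The means of the 7 genes, which are not divided by length, spanned 991-fold. Gpt2 had a mean of 35274 normalized counts, rank 56 of the 10580 listed genes. Bhmt had a mean of 20022 and rank 108. These 2 genes lay above 99.5% and 99.0% of listed genes and held 83.7% of the summed means of the 7. All such shares are of the listed genes, which are fewer than the expressed genes the paper counted. Only 8 of 12 widely expressed reference genes had a row, so these are not shares of all genes expressed in Leydig cells. Amy1 followed at 3372, above 86.6% of listed genes, and Rhbg and Sult1e1 were nearly equal at 2881 and 2879, each above 83.7%. The mean of Adhfe1 was 1626, above 70.7%. Hpgds stood apart at 35.6, above 13.2% of listed genes, and its average in either stage could not exceed 71.2 normalized counts. Thus 6 of the 7 genes lay above the median of the listed genes, 679 normalized counts, and 5 lay above the upper quartile, 1928. The genes were chosen through the authors' comparison of these same libraries, so their levels are not independent of that choice. These counts describe the 7 genes and are no test. Together the 7 genes made up 0.297% of the sum of all means. Whether neighbours in this order differ could not be tested, since the table gives no spread.

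**Figure D2:**
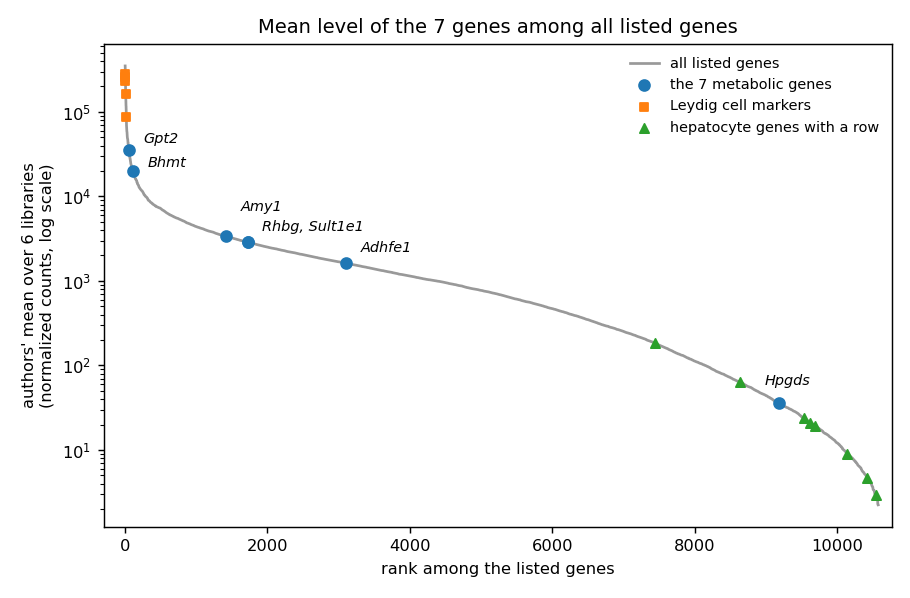
The authors' mean over 6 libraries (normalized counts, log scale) against rank for all 10580 listed genes (line), with the 7 metabolic genes (circles), 5 Leydig cell markers (squares) and the 8 hepatocyte genes that have a row (triangles). The markers and Gpt2 and Bhmt lie at the top left, whereas Hpgds lies at 35.6, among the hepatocyte genes.

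The identity of the cells and the name "liver-like" were checked on marker genes. The 5 Leydig cell markers, Star, Hsd3b1, Cyp11a1, Insl3 and Cyp17a1, had means from 87502 to 283675 normalized counts. Of 24 genes that define hepatocytes, 8 had a row, with a median of 20.2 normalized counts, and none lay above the median of the listed genes. The highest was Foxa3, a transcription factor of liver and gut, at 183, followed by Cyp7a1, which starts bile acid synthesis, at 63.4, and Apoh, a plasma protein, at 23.7. Per kb Foxa3 had 89.8 normalized counts, also below the median of 147. Alb, the gene of serum albumin, had a mean of 21.1, so that neither stage averaged above 42.2. The other 16 hepatocyte genes have no value here. A missing row cannot be read as absence of RNA, since only 8 of 12 widely expressed reference genes had a row. The genes are therefore described by their pathways, and "liver-like" refers to where some of these enzymes are best known and not to a hepatocyte programme measured in these cells.

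Markers of other testicular cells had the following levels. Of 5 Sertoli cell markers, 3 had a row, from 15.8 to 137 normalized counts. Of 7 germ cell markers, 5 had a row, from 184 for Ddx4 to 3191 for Prm2, a protamine of spermatids. By the mean, Gpt2, Bhmt (20022) and Amy1 (3372) lay above Prm2. Per kb of annotated exon Prm2 had 3570 normalized counts, above each of the 7 genes except Gpt2, with Bhmt at 3477. With other lengths Bhmt had higher values per kb, and these lengths were not computed for Prm2. Of 8 symbols for macrophages and other leukocytes, which cover 7 genes, 7 had a row, from 11.6 for Cxcl2 to 982 for Csf1r. Endothelial markers had a row for 2 of 4 genes (102 and 1326), interstitial progenitor markers for 2 of 3 (216 and 1174), peritubular myoid markers for 0 of 3, and of 4 mast cell markers Kit alone (20797), which Leydig cells also express. The part of these cells in the levels of the 7 genes was not tested here. The paper lists all of the 7 genes but Hpgds as markers specific to ALCs within the testis. That list rests on single-cell RNA sequencing of whole testes and, in part, on these same libraries. By in situ hybridization the paper also found Bhmt and Sult1e1 together with Star in adult testis, and it reports BHMT protein by immunostaining.

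Long transcripts collect more reads than short ones, so genes were compared with each other per kilobase of annotated exon (GENCODE vM21, GRCm38). On this scale the order was Gpt2 (6251 normalized counts per kb), Bhmt (3477), Sult1e1 (2318), Rhbg (1487), Amy1 (979), Adhfe1 (430) and Hpgds (5.54), against a median of 147 over the 10522 listed genes with a length. Sult1e1, whose exons cover 1242 bases, stood in the fifth place by the mean and in the third per kb. The places of Amy1 and Rhbg depended on the length used. With the coding sequence alone Amy1 had 2200 and Rhbg 2110 normalized counts per kb, and with the longest transcript the values were 1699 and 1487. The first and last places, Gpt2 and Hpgds, were held under all 4 definitions of length. The level of Hpgds ranged from 5.54 to 59.6 normalized counts per kb. Its annotated exons cover 6425 bases, its coding transcript has 3476 and the coding sequence 597.

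**Figure D3:**
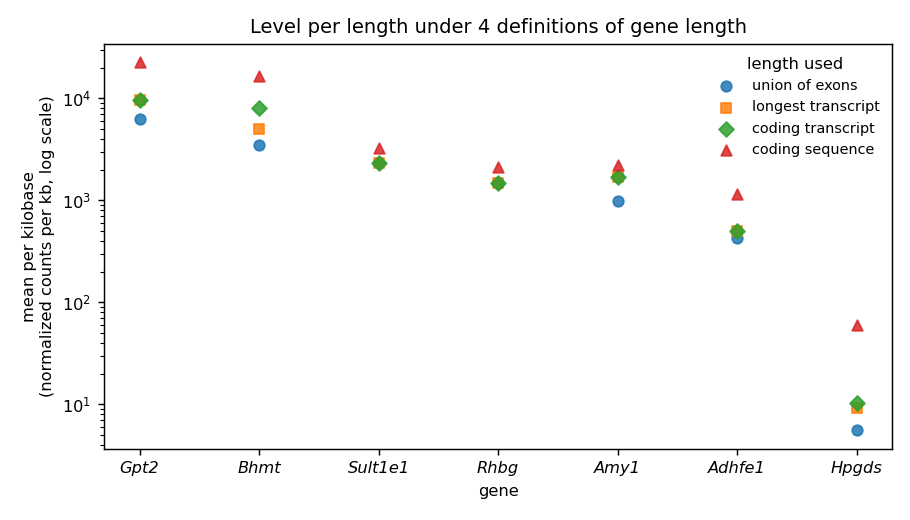
Mean per kilobase (normalized counts per kb, log scale) of the 7 genes with 4 definitions of length; each symbol is the authors' mean divided by 1 length, and symbols overlap where lengths are equal. Gpt2 is highest and Hpgds lowest with every length, and Amy1 lies above or below Rhbg depending on it.

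Within each pathway the genes were ordered by the same level pooled over FLCs and ALCs. The share of each stage in it can differ from gene to gene, so the order within a list need not hold in FLCs or in ALCs alone.

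Bhmt led the list of the methionine cycle and choline oxidation, of which 17 of 21 genes had a row. Its level of 3477 normalized counts per kb was followed by Aldh7a1 (2035), which oxidizes betaine aldehyde among other aldehydes, Mat2a (1387), which makes S-adenosylmethionine, and Ahcyl1 (1222), a relative of S-adenosylhomocysteine hydrolase. Chdh, which starts choline oxidation, had 1186 normalized counts per kb. Mtr, the cobalamin-dependent enzyme that remethylates homocysteine by the other route, had 248. Dmgdh, which acts on the dimethylglycine that BHMT releases, was low at 12.5 normalized counts per kb. Bhmt2, the adjacent paralog, had 3.20, the lowest of the list, although it lies only 17758 bases from Bhmt on the same strand.

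Gpt2 was the second of 15 listed genes of alanine and glutamate metabolism per kb, behind Glul, glutamine synthetase, at 16613 normalized counts per kb. Oat, ornithine aminotransferase, was next with 3285. Gpt, the cytosolic alanine aminotransferase, had 97.2 normalized counts per kb against 6251 for Gpt2. Got1, the cytosolic aspartate aminotransferase, had 1240. The mitochondrial pyruvate carrier subunits Mpc1 and Mpc2, which supply the substrate of GPT2, had 118 and 97.3, below the median of listed genes per kb. By the mean not divided by length, Mpc1 had 246 and Mpc2 714 normalized counts, against a median of 679. The place of Mpc2 thus depended on the division by length.

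Rhbg was the second of 9 listed genes of ammonium transport and the urea cycle per kb. By the mean, Ass1, Asl and Slc25a13 all lay above it. Ass1, argininosuccinate synthetase, had 3391 normalized counts per kb against 1487 for Rhbg, Asl, argininosuccinate lyase, had 830, and Slc25a13, the mitochondrial aspartate-glutamate carrier, had 781. The genes of the cycle that are most restricted to hepatocytes were near the bottom of the table: Arg1 had 2.12 and Otc 0.866 normalized counts per kb, and Cps1 has no value here. Rhcg, the epithelial paralog of Rhbg, had 9.95 normalized counts per kb against the 1487 of Rhbg.

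Amy1 was the fourth of 11 listed genes of amylase and glycogen metabolism per kb, after Gaa, the lysosomal acid glucosidase (1976 normalized counts per kb), Ugp2, which makes UDP-glucose (1342), and Pgm2, a phosphoglucomutase (1034). The pancreatic amylases Amy2a5 and Amy2b have no value here. Glycogen phosphorylase of the liver, Pygl, had 214 normalized counts per kb.

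Sult1e1 led the 8 listed genes of sulfonation per kb. By the mean not divided by length, Papss1 (4450 normalized counts) lay above Sult1e1 (2879). Papss1, which makes the sulfate donor, had 1457 normalized counts per kb, and Bpnt1, which breaks down the spent donor, had 900. Sult1a1, the phenol sulfotransferase, had 693 against 2318 for Sult1e1. Sult4a1, Sult5a1 and Sult2b1 lay between 15.7 and 26.2 normalized counts per kb. Sult1d1, which begins 6941 bases from Sult1e1, and Sts, the steroid sulfatase that reverses the reaction, have no value here.

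Adhfe1 was the eighth of 9 listed genes around hydroxyacid metabolism and alcohol dehydrogenases. Adh1, an alcohol and retinol dehydrogenase, had 26293 normalized counts per kb, and Idh1, the cytosolic isocitrate dehydrogenase that forms 2-oxoglutarate, had 14315, against 430 for Adhfe1. Ogdh, a subunit of the 2-oxoglutarate dehydrogenase complex, had 2488. Aldh5a1, which oxidizes the succinic semialdehyde that ADHFE1 forms, was close to it at 453.

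Hpgds was the twelfth of 13 listed genes of prostaglandin synthesis and breakdown per kb, and the last of them by the mean. Ptgds, the lipocalin-type enzyme that makes the same prostaglandin, had 29216 normalized counts per kb, against 5.54 to 59.6 for Hpgds depending on the length used for it. The glutathione transferases Gstm1 and Gsta4 had 81934 and 8147 normalized counts per kb. The 7 leukocyte markers with a row ranged from 5.61 normalized counts per kb for Cxcl2 to 651 for C1qa. Between them were Ptprc at 7.57, Cd163 at 8.39, Emr1 at 54.8, Csf1r at 170 and Cd68 at 219. All lay above the 5.54 that Hpgds had with the same length, the union of exons. Other lengths, which gave Hpgds up to 59.6, were not computed for the markers. By the mean, Hpgds (35.6 normalized counts) lay above Cxcl2 (11.6) and below the other markers. The paper names Hpgds among the genes already known to be specific to ALCs. Whether leukocytes contributed the reads of Hpgds was not tested.

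**Figure D4:**
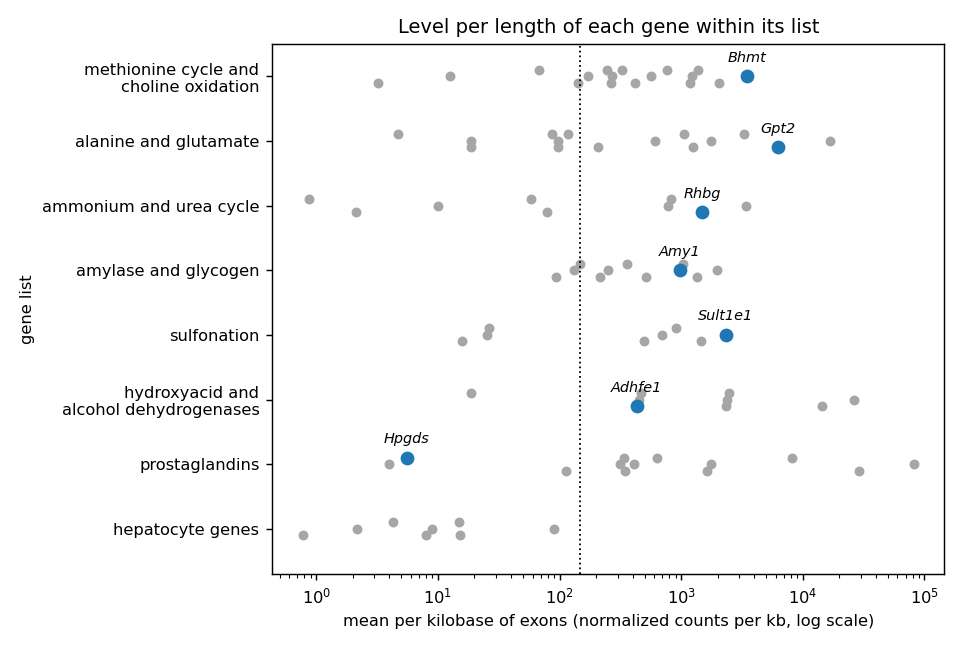
Mean per kilobase of exons (normalized counts per kb, log scale) of every gene with a value in the 7 pathway lists and the hepatocyte list; large circles are the 7 genes, small circles the other genes (shifted vertically only to separate them), and the dotted line is the median of all listed genes, 147. Bhmt and Sult1e1 lie furthest right in their lists, and Hpgds lies left of the median.

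How securely reads can be given to these genes differed. The share of a gene's transcript sequence that also occurs in another annotated gene was measured in windows of 50 bases. Sult1e1 and Adhfe1 shared 0% of their windows, Hpgds 0.393% and Gpt2 1.17%. Rhbg shared 60.4%, all of it with Gm38392, a gene annotated on the same strand that overlaps 1190 exon bases of Rhbg (61.4%). Amy1 shared 33.3%, most of it (31.8% of its windows) with Rnpc3, whose exons overlap 1128 bases of Amy1 on the same strand (32.7%). The pancreatic amylases, including Amy2b, shared no window with Amy1 at 100 bases, and between 32 and 51 windows each at 50 bases. Gm38392, Rnpc3 and the pancreatic amylases have no value here, and how the authors divided reads between overlapping genes is not given in the sources used here.

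Bhmt shared 25.3% of its 50-base windows with other genes. Most were found in Gm5096 (24.1%), a gene with 1 exon that GENCODE lists as protein coding and RefSeq as a pseudogene, and 13.5% in Bhmt-ps1, a pseudogene with no value here. In the other direction 76.4% of the windows of Gm5096 occurred in Bhmt. Gm5096 had a mean of 9999 normalized counts, above 97.3% of listed genes, so that the mean of Bhmt was 2.00-fold that of its copy and Gm5096 made up 33.3% of the sum of both. If all reads given to Gm5096 came from Bhmt, the mean of Bhmt would be 30021 normalized counts, above 99.4% of listed genes, against 35274 for Gpt2. Per kb Gm5096 had 5359 normalized counts, above Bhmt with the union of exons as length (3477) and below it with the coding transcript (8041). Which of both genes the reads came from was not tested. Gm5096 was singled out after its value was seen.

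**Figure D5:**
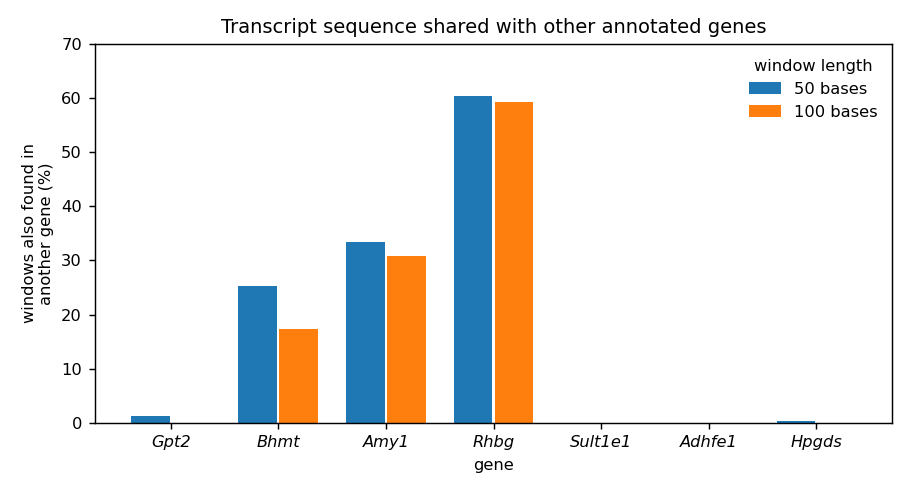
Share (%) of the distinct 50-base or 100-base windows of each gene's transcripts that also occur in another GENCODE gene. Rhbg (60.4%), Amy1 (33.3%) and Bhmt (25.3%) share sequence at 50 bases, and the other 4 genes share at most 1.17%.

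Among the nearest genes on each side, 5 had a value: Dnaja2 beside Gpt2 (4549 normalized counts), Bhmt2 beside Bhmt (7.89), Mef2d and Tsacc around Rhbg (7476 and 152) and Smarcad1, which lies 1231 bases from Hpgds (1219). Antisense overlaps were small, 187 bases between Bhmt and Gm15622 and 154 bases between Adhfe1 and 2610203C22Rik. The genes lie on 6 chromosomes, Amy1 (chr3:113555710-113606699) and Rhbg (chr3:88242874-88254709) on the same chromosome but not near each other. The other positions were chr8:85492576-85527560 for Gpt2, chr13:93616675-93637961 for Bhmt, chr5:87575969-87591594 for Sult1e1, chr1:9547948-9580673 for Adhfe1 and chr6:65117293-65144908 for Hpgds. Each gene is annotated as protein coding, with 6 exons in the coding transcript of Hpgds and up to 14 in that of Adhfe1.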

How the data were processed

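RNA of sorted Leydig cells was measured in 3 FLC and 3 ALC libraries, made with a stranded total RNA kit after removal of ribosomal RNA, per the labels; the study's text also speaks of poly(A)+ RNA. The authors demultiplexed with CASAVA 1.8.2, mapped with GemTools, counted reads with their own pipeline on a GENCODE GRCm38 annotation, left out genes with few reads and used DESeq2. The deposited table gives a signal per gene, a single mean that the authors' software took across the 6 libraries after scaling each for its size; it was used as it stands. Its other columns hold the authors' fold change, its error, the test statistic and p-values, which were not used. The planned comparison of ALCs with FLCs therefore could not be made.

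Ranks and shares were computed over all listed genes. These are fewer than the expressed genes the paper counted, and why the others have no row is not known. Lengths, overlaps and windows came from GENCODE vM21 (10223 genes matched by symbol, 299 by an older symbol, 58 not). This release is later than the authors', whose gene models may differ. Promoters came from RefSeq. Scripts ran in Python 3.11.15 and were tested on simulated data. The genes and lists were chosen with earlier results of these data known. Named in each list were the genes of highest mean; other list genes, the reference genes and base composition were chosen after values were seen. Intervals (Wilson, 95%) on ranks cover counting over genes only.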

Additional observations from a re-analysis of the deposited data

How the results depend on the processing

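No paired analysis was possible because the table holds 1 mean per gene and no value per library. For the same reason the other normalization, the count filter, the other count test and leaving out each library were not run, and protein identity between paralogs was not run for want of sequences. Depth per library is unknown, so no limit of detection can be given.

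Of 21 alternative values for the share of listed genes below a gene, 3 stayed within the 95% interval of the reported share. That interval covers counting over genes only, and leaving out genes of low mean lowers each share by construction. The count therefore does not measure how firm the levels are. Among genes with a mean of at least 10, the share was 82.9% for Rhbg, 82.9% for Sult1e1, 69.3% for Adhfe1 and 9.02% for Hpgds. Among genes with a mean of at least 100, it was 99.3% for Gpt2, 98.7% for Bhmt, 82.5% for Amy1, 78.8% for Rhbg, 78.8% for Sult1e1 and 61.9% for Adhfe1, where fewer low genes were counted; Hpgds is below that mean. Per kb of exons, it was 98.9% for Gpt2, 97.8% for Bhmt, 89.2% for Amy1, 93.3% for Rhbg, 96.2% for Sult1e1, 75.1% for Adhfe1 and 8.23% for Hpgds. With Gm5096 added, an alternative chosen after seeing the data, it was 99.4% for Bhmt. In each of these, the 6 genes above the median stayed above it, which is not independent of how the genes were chosen. At 100-base windows the shared part was 59.4% for Rhbg, 30.8% for Amy1 and 17.3% for Bhmt, and 0% for the others. With promoters from 100 bases before the start, AAGGTCA was matched in Bhmt alone (2.16% of promoters) and the C/EBP motif in none of the genes.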
